A study of Mus musculus with 20 samples.

Results

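The 5 genes described here, *Elane*, *Prtn3*, *Mpo*, *Ctsg* and *Ms4a3*, encode azurophil granule proteins and a membrane protein of granulocyte and monocyte progenitors. They were taken from the table of 59311 annotated genes by their symbols, and each symbol matched 1 row. The selection rested on the comparison of Ly6C hi with Ly6C lo monocyte-derived macrophages (MoMac), since *Elane* and *Prtn3* are among the genes most enriched in Ly6C hi MoMac. That comparison is therefore described below without a test for these genes, while the comparison of Ac-6-FP with vehicle was tested.

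RNA was sequenced from MoMac of 10 male C57BL/6 mice (C57BL/6J, aged 10 to 12 weeks), all with liver fibrosis after 4 weeks of CCl4. Mice 16 to 20 had received Ac-6-FP (acetyl-6-formylpterin, which binds MR1 and blocks the activation of MAIT cells), first given 2 h before the last CCl4 injection and then daily, and mice 11 to 15 had received its vehicle. Cells were taken 2 days after that last injection, and CD11b+ F4/80+ cells without CD3, CD11c and Ly6G were sorted into a Ly6C hi and a Ly6C lo fraction from each liver, which gave 4 groups of 5 libraries. Mice without fibrosis were not part of the sequencing, so every level given here is one of a fibrotic liver.

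Neutrophil elastase (*Elane*), proteinase 3 (*Prtn3*) and cathepsin G (*Ctsg*) are serine proteases that are made as proenzymes, activated by cathepsin C and packed with myeloperoxidase (*Mpo*), a heme enzyme, into the azurophil granules of neutrophils. Their mRNAs are made mainly by promyelocytes and by granulocyte and monocyte progenitors of the bone marrow, and mature neutrophils keep the proteins after the mRNAs have largely gone. Monocytes carry smaller amounts of the same proteins, and *Ms4a3* marks the progenitors from which granulocytes and Ly6C hi monocytes arise.

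*Elane* (GSMG0003237, chr10:79886247-79888216 of mm10) and *Prtn3* (GSMG0003236, chr10:79879667-79883170) lie 3077 bases apart in the same orientation, and their levels moved together over the Ly6C hi libraries, as described below. The DNA in front of both genes is therefore shown, taken from RefSeq promoters of GRCm38.p6 (the assembly that mm10 names) on the plus strand, from 250 bases before the RefSeq start to the base before the first position in the window that GENCODE places in an exon or the deposited table in the gene. Capitals mark GAGGAA, the core bound by PU.1 and other ETS factors.
Elane, chr10:79886062-79886246: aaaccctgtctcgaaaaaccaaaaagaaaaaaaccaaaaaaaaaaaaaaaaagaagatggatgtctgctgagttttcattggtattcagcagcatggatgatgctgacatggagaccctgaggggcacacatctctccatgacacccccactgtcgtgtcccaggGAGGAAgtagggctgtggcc
Prtn3, chr10:79879417-79879613: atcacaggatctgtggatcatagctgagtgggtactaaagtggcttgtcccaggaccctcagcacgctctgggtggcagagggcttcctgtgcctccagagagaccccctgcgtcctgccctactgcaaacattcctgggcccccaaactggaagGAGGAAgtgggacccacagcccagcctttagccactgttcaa

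Both promoters held GAGGAA on the strand of the gene, at positions -85 to -80 from the RefSeq start in *Elane* and -95 to -90 in *Prtn3*. Both also held CAACNG, the sequence bound by MYB, at -51 to -46 in *Elane*, past the end of the stretch shown, and at -56 to -51 in *Prtn3*, of which the stretch shown holds the first 3 bases. The window searched ran from 250 bases before to 50 bases after the RefSeq start, on both strands, and all 5 genes matched a promoter entry. GAGGAA occurred in 5 of the 5 windows, and in 28.3% of the 32851 mouse promoters of the same length. CAACNG or TAACNG, the forms searched for MYB, occurred in 4 of the 5 windows (all but that of *Ms4a3*) and in 49.7% of all promoters. TTGCNNAA (C/EBP) was found in the window of *Ms4a3* (10.8% of all promoters), where it starts right after GAGGAA, and TGTGGT or TGCGGT (RUNX) in that of *Ctsg* (22.4%). These are matches of letters, and binding of any factor was not measured.

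All values below are normalized counts, that is, reads on a gene divided by the DESeq2 size factor of the library, on a linear scale without division by gene length. Reads counted on genes ranged from 5693049 to 18682437 in the 19 libraries in which whole reads could be recovered, and 3 reads is the upper limit that a count of 0 leaves (counting error only). Genes above 0 numbered 9017 to 14606 in Ly6C hi vehicle and 11096 to 15587 in Ly6C hi Ac-6-FP libraries. In Ly6C lo MoMac the range was 5343 to 15723 with vehicle and 11156 to 15766 with Ac-6-FP, and the library with 5343 genes, of mouse 13, stood apart from the rest. *Ly6c2*, the antigen of the sort, was at 4930 to 10012 in Ly6C hi and at 284 to 1014 in Ly6C lo libraries, so that each library was on the side its label gives.

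In Ly6C hi MoMac *Prtn3* and *Elane* were measured in every library and *Mpo* in nearly every one, while *Ctsg* was lower and *Ms4a3* close to the limit of detection. With vehicle, *Elane* was at 475, 766, 1204, 1045 and 2794 in mice 11 to 15, and with Ac-6-FP at 1291, 1595, 2120.3, 2090 and 5132 in mice 16 to 20. In the Ly6C lo libraries *Elane* was at 2.48 in mouse 12 and at 0 in the other vehicle mice, and at 3.78, 0, 176, 0 and 54.7 in mice 16 to 20. The Ly6C hi libraries were thus above all Ly6C lo libraries, and mouse 20 had the highest value.

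*Prtn3* had the highest mean of the 5 in Ly6C hi MoMac and was above 0 in 7 of 10 Ly6C lo libraries, more than any of the others. Its Ly6C hi levels were 1027, 1385, 1779.8, 1324 and 3267 in mice 11 to 15 and 2068, 2082, 2172, 2426 and 4405 in mice 16 to 20. The Ly6C lo levels of *Prtn3* were 52.4, 375, 0, 0 and 0 with vehicle and 21.8, 201, 64.55, 139.6 and 349 with Ac-6-FP. Groups of the 2 subsets again did not overlap, and the lowest Ly6C hi value was that of mouse 11 while the highest was that of mouse 20.

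*Mpo* (GSMG0005730, chr11:87793784-87804411) was lower than *Elane* and *Prtn3* on average. It was at 293, 488, 287, 0 and 808 in mice 11 to 15 and at 318.5, 918, 1362, 1188 and 4591 in mice 16 to 20. In Ly6C lo MoMac it was at 12.4 in mouse 12, at 103 in mouse 17 and at 1283 in mouse 20, with 0 in the other 7 libraries. The Ly6C lo library of mouse 20 was therefore above 8 of the 10 Ly6C hi libraries, and in mouse 14 both libraries were at 0.

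*Ctsg* (GSMG0012442, chr14:56099881-56102574, minus strand) was at 42.5, 0, 103, 0 and 229 in the Ly6C hi libraries of mice 11 to 15 and at 139.9, 111, 108, 194 and 299.55 in those of mice 16 to 20. In Ly6C lo MoMac it was above 0 in mouse 17 (45.99) and mouse 20 (99.25) and at 0 in the other 8 libraries. *Ms4a3* (GSMG0020120, chr19:11629493-11640852, minus strand) was at 0 in 4 Ly6C hi vehicle libraries and at 89.01 in that of mouse 15, and with Ac-6-FP it was at 38.1, 0, 42.5, 39.5 and 117 in mice 16 to 20. Its Ly6C lo levels were 0 in all vehicle mice and 0, 0, 69.3, 22.3 and 38.0 in mice 16 to 20. For *Ms4a3* the 2 subsets overlapped, and in mouse 18 the Ly6C lo value was the higher of both.

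**Figure D1:**
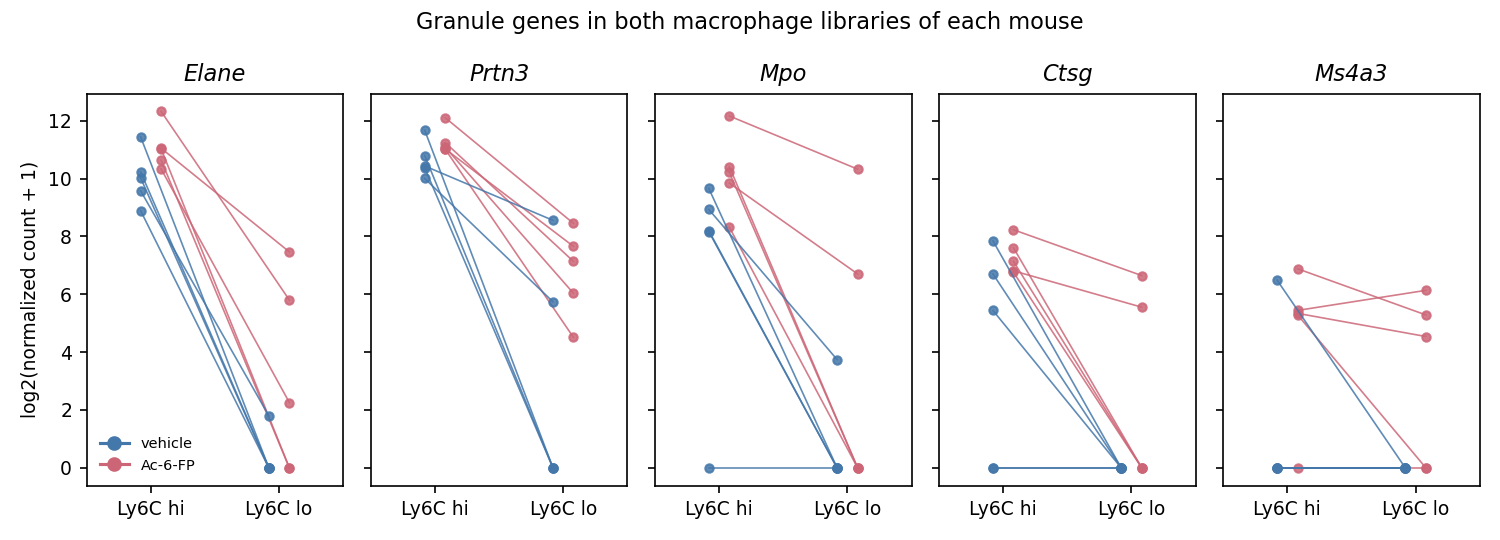
Level of each gene as log2(normalized count + 1) in the Ly6C hi and the Ly6C lo library of each of 10 mice, with a line for each mouse and vehicle mice in blue and Ac-6-FP mice in red. *Elane* and *Prtn3* fell from Ly6C hi to Ly6C lo in 10 of 10 mice, while *Ms4a3* was at 0 in 5 Ly6C hi and 7 Ly6C lo libraries.

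To order the levels between genes, normalized counts were divided by the length of the longest coding transcript in GENCODE (984 bases for *Elane*, 1025 for *Prtn3*, 2750 for *Mpo*, 1002 for *Ctsg* and 1010 for *Ms4a3*), since the length of the regions the authors counted on is not given. The median level per kb over Ly6C hi libraries was 2024 for *Prtn3* (range 1002 to 4297), 1467 for *Elane* (483 to 5215), 236 for *Mpo* (0 to 1669), 109 for *Ctsg* (0 to 299) and 18.9 for *Ms4a3* (0 to 116). *Prtn3* exceeded *Elane* within 8 of 10 libraries, while their ranges over libraries overlapped. *Elane* exceeded *Mpo* per kb in 10 of 10 libraries, *Mpo* exceeded *Ctsg* in 8, with 1 library in which both were at 0, and *Ctsg* exceeded *Ms4a3* in 8, with 2 in which both were at 0. The 5 genes together made up 0.0152 to 0.121% of the normalized counts of a Ly6C hi library and at most 0.0131% of those of a Ly6C lo library.

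As a description of the contrast that chose them, the difference between the Ly6C hi and the Ly6C lo library of a mouse on the log2(normalized count + 1) scale was 8.83 ± 2.42 (SD, n = 10 mice) for *Elane*, which ranked 1 among the 17248 genes tested. It was 6.51 ± 3.73 for *Mpo* (rank 6), 6.17 ± 3.51 for *Prtn3* (rank 9), 4.43 ± 3.30 for *Ctsg* (rank 48) and 1.35 ± 2.49 for *Ms4a3* (rank 1965). The median difference over all genes tested was -0.03. Every Ly6C hi library was above every Ly6C lo library for 2 of the 5 genes, *Elane* and *Prtn3*, and for 0.429% of all genes tested, and nothing is read from these counts since the genes were chosen on them. Without mouse 13 the differences were 8.76 for *Elane*, 6.27 for *Mpo*, 5.79 for *Prtn3*, 4.10 for *Ctsg* and 1.51 for *Ms4a3*. The last was 0.70 without mouse 15 and 0.86 without mouse 16. The size of these differences depended on the pseudocount. With 10 and 0.1 they were 6.48 and 10.9 for *Elane*, 4.46 and 8.52 for *Mpo* and 5.07 and 7.18 for *Prtn3*. For *Ctsg* they were 2.49 and 6.42, and for *Ms4a3* 0.70 and 2.01.

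What remained in the Ly6C lo libraries is set beside genes of Ly6C hi monocytes, again as a description only, since these shares come from the contrast on which the genes were chosen. The Ly6C lo value was 5.51 to 18.0% of the Ly6C hi value of the same mouse for *Ly6c2* (median 8.97%) and 0 to 10.05% for *F13a1*, the coagulation factor XIII subunit (median 3.95%). For *Elane* it was 0 to 8.29% with a median of 0%, and below that of *Ly6c2* in 10 of 10 mice. *Prtn3* ranged from 0 to 27.1% (median 4.04%) and *Mpo*, in the 9 mice with a Ly6C hi value, from 0 to 27.9% (median 0%). Each of these 2 genes was below the share of *Ly6c2* in 7 mice. *Ctsg* ranged from 0 to 41.3% in the 8 mice with a Ly6C hi value (median 0%, below *Ly6c2* in 6), and *Ms4a3* from 0 to 163% in 5 mice (median 32.5%, below *Ly6c2* in 2). *Elane* was 0.463 to 1.17 times *Prtn3* in the 10 Ly6C hi libraries, and of the 7 Ly6C lo libraries with *Prtn3*, 3 had no *Elane*, 3 had 0.00661 to 0.174 times as much *Elane* and that of mouse 18 had 2.72 times as much. In RNA of sorted populations, fewer cells with these transcripts and less transcript per cell cannot be told apart.

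Ac-6-FP was then compared with vehicle within each subset, which addresses whether blocking MAIT cell activation moved these transcripts. All 5 genes had a higher mean in Ly6C hi MoMac of Ac-6-FP mice, but the values of the groups overlapped for each of them (every Ac-6-FP library lay above every vehicle library in 0.968% of all genes tested) and 0 of 5 passed the test, against 0.0754% of the 17248 genes tested (13 genes; limma on log2 values, Benjamini-Hochberg adjusted p-value under 0.05). The median log2 difference of all genes tested was 0.35, so this direction was common among all genes. Without adjustment, 0 of 5 had a p-value under 0.05 in limma (8.73% of all genes tested), 1 in the exact permutation test (7.11% of all genes tested) and 3 in edgeR (7.4%), which also called 0 of 5 with adjustment. The edgeR fit lacks mouse 15, the highest vehicle library for each of the 5 genes.

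*Elane* was at 1257 ± 903 (SD, n = 5) with vehicle and 2446 ± 1541 (SD, n = 5) with Ac-6-FP, a log2 difference of 1.04 (standard error 0.51, 95% interval -0.12 to 2.20, limma adjusted p = 0.619, exact permutation p = 0.103). For *Prtn3* the means were 1757 ± 886 and 2631 ± 1002 (SD, n = 5 each), a log2 difference of 0.64 (standard error 0.33, 95% interval -0.12 to 1.39, limma adjusted p = 0.648, exact permutation p = 0.119). In both genes an Ac-6-FP library was the higher of the pair in 21 of the 25 possible pairs of an Ac-6-FP with a vehicle library.

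*Mpo* differed most between the treatments by its counts, with 375 ± 298 (SD, n = 5) in vehicle and 1676 ± 1677 (SD, n = 5) in Ac-6-FP libraries, and the Ac-6-FP library was the higher one in 23 of 25 pairs. Its log2 difference was 3.20 (standard error 1.77, 95% interval -0.81 to 7.20, limma adjusted p = 0.651, exact permutation p = 0.0397, where 0.00794 is the smallest value that 5 against 5 mice allow). Without mouse 14, whose vehicle library was at 0, the log2 difference was 1.45. *Ctsg* was at 75.0 ± 96.1 with vehicle and 171 ± 80.0 with Ac-6-FP (SD, n = 5 each; log2 difference 3.31, standard error 1.63, limma adjusted p = 0.619, exact permutation p = 0.0794). *Ms4a3* was at 17.8 ± 39.8 and 47.4 ± 42.6 (SD, n = 5 each; log2 difference 3.29, standard error 1.74, limma adjusted p = 0.651, exact permutation p = 0.167). Its log2 difference was 1.46 with a pseudocount of 10 and 8.80 with edgeR. The pseudocount of 10 gave 1.98 for *Ctsg*.

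These differences have to be read beside a shift of all genes. The median log2 difference of the 17248 genes was 0.35 in Ly6C hi MoMac, where Ac-6-FP libraries held more genes above 0 (median 13622 against 9749), and the median of the 5 genes was 3.20, or 1.45 without mouse 14 and 1.46 with a pseudocount of 10. With quantile normalization these medians were 0.09 and 2.67, and with the number of genes above 0 as a covariate 0.01 and 1.65. All 5 differences stayed above 0 in each of these fits. Mouse 20, which held the most genes above 0 of the Ly6C hi libraries (15587), also had the highest value of each of the 5 genes in that subset, and its part in the result was measured by leaving it out, which gave log2 differences of 0.73 for *Elane*, 0.44 for *Prtn3*, 2.71 for *Mpo*, 3.08 for *Ctsg* and 2.72 for *Ms4a3*.

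The 5 genes also had a higher mean with Ac-6-FP among Ly6C lo libraries, again with groups that overlapped for each gene (1.29% of all genes tested did not overlap in this direction), and 0 of 5 passed the test, against 0.0522% of all genes tested (9 genes). This direction was again common, with a median log2 difference of 0.91 over all genes tested. Without adjustment 1 of 5 had a limma p-value under 0.05, *Ms4a3* (9.31% of all genes tested), and with edgeR 4 of 5 (9.36% of all genes tested), while the exact permutation test gave 0 of 5 (9% of all genes tested). *Prtn3* was above 0 in 5 of 5 Ac-6-FP and 2 of 5 vehicle libraries (155 ± 128 against 85.6 ± 164, SD, n = 5 each), with a log2 difference of 3.90 (standard error 1.87, limma adjusted p = 0.545, exact permutation p = 0.103) that was 3.18 without mouse 13. *Elane* was above 0 in 3 of 5 Ac-6-FP and 1 of 5 vehicle libraries, a log2 difference of 2.74 (standard error 1.48, limma adjusted p = 0.564, exact permutation p = 0.167) that was 1.65 without mouse 18. For *Mpo* the Ac-6-FP mean of 277 ± 564 (SD, n = 5) rested on mouse 20, and the log2 difference of 2.66 (standard error 2.15, limma adjusted p = 0.613, exact permutation p = 0.444) was 0.93 without it. These values varied with the processing. With edgeR the log2 differences were 0.78 for *Prtn3*, 6.13 for *Elane*, 6.66 for *Mpo*, 7.76 for *Ctsg* and 7.58 for *Ms4a3*, and with a pseudocount of 10 they were, in the same order, 2.02, 1.41, 1.87, 1.19 and 1.39.

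*Ctsg* and *Ms4a3* were at 0 in all Ly6C lo vehicle libraries. Against 3 reads per library, *Ctsg* was at least 7.96-fold higher with Ac-6-FP, in 2 of 5 libraries (limma adjusted p = 0.564, exact permutation p = 0.444), and at least 3.15-fold without mouse 20. *Ms4a3* was at least 7.11-fold higher, in 3 of 5 libraries (limma adjusted p = 0.528, unadjusted p = 0.0307, exact permutation p = 0.167), and at least 4.13-fold without mouse 18. The median log2 difference of the 5 genes was 2.74, beside 0.91 for all genes tested. The bounds compare mean counts and are not on the scale of these differences of mean log2 values. Medians of the other lists ran from -0.83 (basophil and mast cell genes) to 3.99 (Kupffer cell genes). Specific granule genes were at 3.13 and mature neutrophil genes at 1.67. Without mouse 13 the median of all genes was 0.34 and that of the 5 genes 2.65.

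The treatment difference was finally compared between the subsets within mice. The log2 difference in Ly6C hi minus that in Ly6C lo MoMac was -1.71 for *Elane* (95% interval -5.00 to 1.59, exact permutation p = 0.310), -3.26 for *Prtn3* (-7.23 to 0.71, exact p = 0.143), 0.54 for *Mpo* (-4.46 to 5.54, exact p = 0.817), 0.87 for *Ctsg* (-3.76 to 5.50, exact p = 0.571) and 0.10 for *Ms4a3* (-3.64 to 3.84, exact p = 0.921). Without mouse 18 the value of *Elane* was -0.61. With a pseudocount of 10 the values were -0.38 for *Elane* and -1.39 for *Prtn3*, and with 0.1 they were -3.05 and -5.24. None of the 5 passed the limma test (adjusted p = 0.830 or more, 0 of 5 with an unadjusted p-value under 0.05, against 4.87% of all genes tested, and 0 of 5 by edgeR with and without adjustment and by the exact test, against 2.16% and 5.15% of all genes tested without adjustment), and of all genes tested 0% did. The intervals are wide, so neither an equal nor a different response of the subsets was shown.

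**Figure D2:**
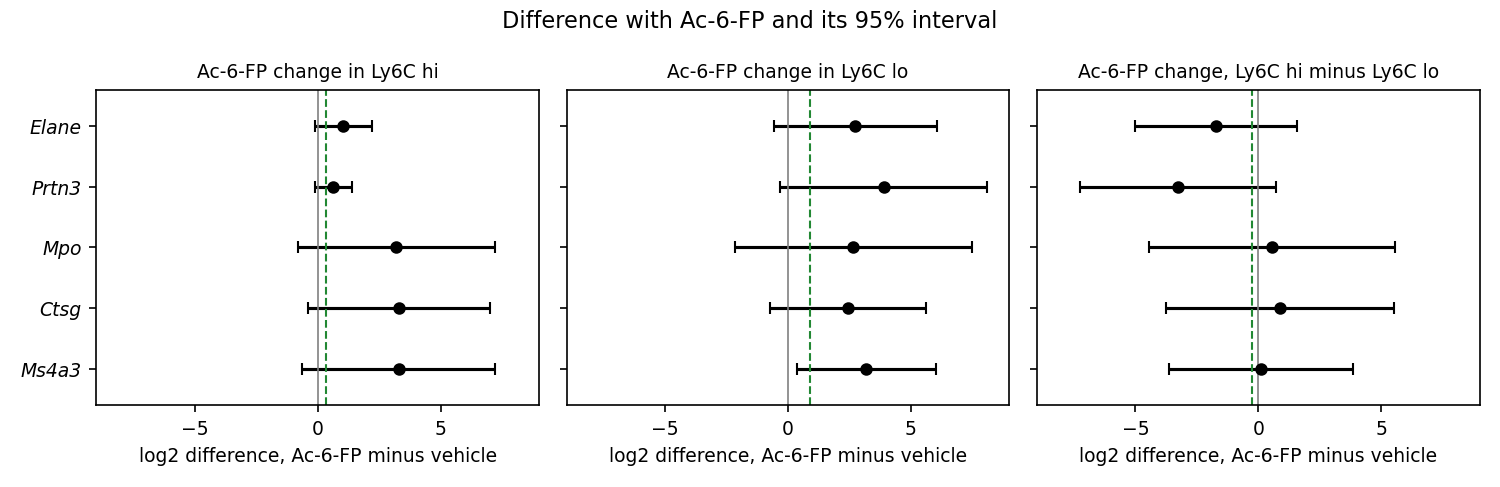
Difference of mean log2(normalized count + 1) between 5 Ac-6-FP and 5 vehicle mice (points) with its 95% interval from limma (bars), in Ly6C hi, in Ly6C lo, and as the within-mouse difference of both. The dashed green line is the median of all 17248 genes tested (0.35, 0.91 and -0.27), and the interval includes 0 for every gene and panel except *Ms4a3* in Ly6C lo (0.37 to 6.02).

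Variation between mice within the Ly6C hi subset was not used to choose the genes. Over the 10 Ly6C hi libraries, with the treatment means subtracted from the log2 values, *Elane* and *Prtn3* varied together, with a Pearson correlation of 0.96 (permutation test, p = 5e-05, adjusted p = 0.0005 over the 10 pairs of genes). Spearman's rho was 0.79 (permutation p = 0.00883, adjusted p = 0.0883). Without mice 15 and 20, the farthest from the median of *Elane*, the Pearson correlation was 0.85. Of 6960 genes with a mean of at least 100 in Ly6C hi MoMac, *Prtn3* ranked 1 by its correlation with *Elane*, and *Elane* ranked 1 by its correlation with *Prtn3*. Both points of a mouse come from 1 library and share its depth.

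None of the other 9 pairs passed the adjusted threshold. *Ms4a3* had Pearson correlations of 0.75 with *Prtn3* (permutation p = 0.0106, adjusted p = 0.0532; Spearman's rho 0.67, permutation p = 0.0389) and 0.71 with *Elane* (permutation p = 0.0233, adjusted p = 0.0776; rho 0.55, permutation p = 0.103), which dropped to 0.16 and 0.14 without mice 15 and 20 and so rested on them. *Mpo* correlated at 0.29 with *Elane*, 0.44 with *Prtn3*, 0.59 with *Ctsg* and 0.34 with *Ms4a3*, and *Ctsg* at 0.42 with *Elane*, 0.54 with *Prtn3* and 0.49 with *Ms4a3* (adjusted permutation p = 0.191 or more, with rho from 0.36 to 0.62 and Pearson correlations of -0.22 to 0.64 without the 2 mice farthest from the median). By rank, *Ctsg* was at place 602, *Mpo* at place 1256 of 6960 in likeness to *Elane*.

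**Figure D3:**
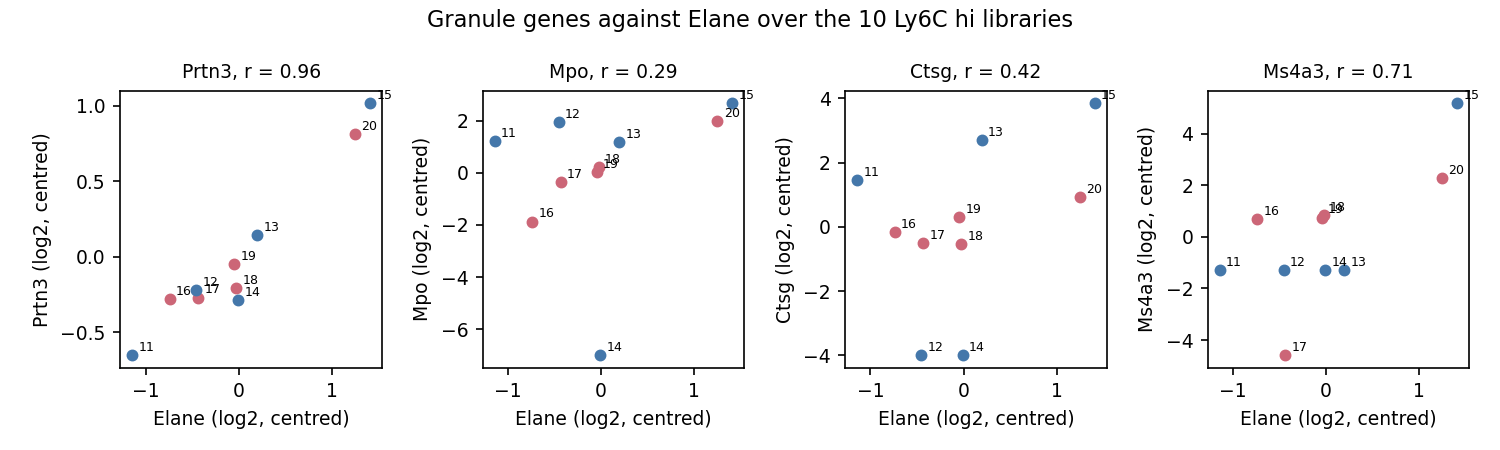
Log2 level of each other gene against that of *Elane* over the 10 Ly6C hi libraries after subtraction of the treatment mean, with vehicle mice in blue, Ac-6-FP mice in red and mouse numbers beside the points. *Prtn3* follows *Elane* over all mice (r = 0.96), whereas for *Mpo*, *Ctsg* and *Ms4a3* libraries listed at 0 form the low points.

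The genes whose Ly6C hi pattern was most like the mean of the 5 (Pearson correlation over the same 10 libraries) were *Lpcat3*, a lysophospholipid acyltransferase (0.91), *Cd164*, a sialomucin (0.90), a row without a symbol, GSMG0056413 (0.89), *Spp1*, which encodes osteopontin (0.88), and *Atp5a1*, an ATP synthase subunit (0.88). These are the highest values among the other genes with a mean of at least 100 in Ly6C hi MoMac and are given as a description only. By mean count *Spp1*, *Lpcat3* and *Cd164* were higher in Ly6C lo MoMac (7707 against 4695, 1292 against 551 and 2730.5 against 1739). The mean log2 difference of Ly6C hi from Ly6C lo was 0.38 for *Cd164*.

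Other genes of the granule pathway were read from lists, with limma on the within-mouse subset difference, in which 5.22% of all genes tested passed the threshold, 1.81% as higher in Ly6C hi and 3.41% as higher in Ly6C lo MoMac. Among azurophil cargo other than the 5 genes, the row shared by the lysozyme genes *Lyz2* and *Lyz1* was at 105032 to 142984 in Ly6C hi and 27156.5 to 58808 in Ly6C lo libraries (log2 difference 1.59, limma adjusted p = 5.4e-06, passed in 18 of 18 alternatives). *Prss57*, which encodes a further protease of these granules, was above 0 in 3 libraries of each subset, and *Bpi* was at 0 in all 20.

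Among genes that activate or pack the proteases, 1 of 4 was higher in Ly6C hi MoMac, 2 were lower and 1 did not pass. *Ctsc*, the cathepsin that cuts the proenzymes, was at 19082 to 37520.1 in Ly6C hi and at 7413 to 13046 in Ly6C lo libraries (log2 difference 1.55, standard error 0.09). The granule proteoglycan serglycin, *Srgn*, went the other way, with a log2 difference of -1.64 (standard error 0.08), as did *Cd63*, a membrane protein of granules and lysosomes, at a mean of 56.0 in Ly6C hi and 1469 in Ly6C lo libraries. Of 9 tested rows for inhibitors of these proteases, 1 was higher in Ly6C hi MoMac, *Slpi* (7528 ± 1400.1 against 1856 ± 1002, SD, n = 10 each). *Serpinb1a*, which inhibits all 3 proteases, was at a mean of 1319.8 in Ly6C hi and 369.5 in Ly6C lo libraries and did not pass (limma adjusted p = 0.0833), like the other 7 rows.

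Transcription factors of granule genes did not pass the test, and progenitor genes were split. Of 8 tested factors 0 passed in limma in either direction (median log2 difference -0.11). Without adjustment 1 had a limma p-value under 0.05, *Cebpe* (log2 difference -2.53), against 2966 of the 17248 genes tested. *Cebpa* was at 134 to 985 in Ly6C hi and 53.8 to 565 in Ly6C lo libraries, and *Spi1*, which encodes PU.1, at 17.4 to 290.3 and 8.35 to 168, while *Myb* was above 0 in 1 Ly6C hi library and *Gfi1* in none. Of 10 tested progenitor genes, 2 were higher in Ly6C hi MoMac and 4 were lower. The higher ones were *Fcnb*, a ficolin of monocyte and neutrophil precursors (265 to 1452 against 0 in 8 of 10 Ly6C lo libraries, limma adjusted p = 0.00177), and *Plac8* (33255 ± 7010.3 against 14276 ± 3156, SD, n = 10 each). The lower ones were *Cd34*, *Kit*, *Flt3* and *Gata2*, of which *Kit* and *Gata2* were at 0 in all 10 Ly6C hi libraries. Of 18 alternatives, *Flt3* passed in 17, *Kit* in 11 and *Cd34* and *Gata2* in 10 each, and edgeR gave an adjusted p of 0.102 or more for these 4. *Hlf* was at 0 in all 20 libraries, while in Ly6C hi MoMac *Cd34* was above 0 in 5 libraries, *Flt3* in 4, *Sox4* in 5 and *Meis1* in 6.

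The Ly6C hi libraries were checked for neutrophils, the cells best known for these proteins. Of 10 tested genes of mature neutrophils none was higher in Ly6C hi MoMac and 3 were lower, *Cxcr2* (edgeR adjusted p = 0.113), *Mmp9* and *Retnlg*. The summed level of the 12 listed genes was 3659 to 7311 in Ly6C hi and 11275.5 to 131973 in Ly6C lo libraries. *Ly6g* was at 0 to 16.2 in Ly6C hi libraries, *Cxcr2* and *Mmp9* were above 0 in 1 of 10, and *Stfa1* and *Stfa2* were at 0 in all. Most of the Ly6C lo sum was *Retnlg*, at 9064 to 117062. The other 7 genes did not pass, among them *S100a8* (mean 3982 in Ly6C hi and 4142 in Ly6C lo libraries, log2 difference 0.94) and *Csf3r* (mean 393 and 205, log2 difference 2.33). The part of neutrophils in the levels of the 5 genes was not tested.

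Specific granule genes, which are switched on after the azurophil genes as neutrophils mature, were split. Of 9 tested, 2 were higher in Ly6C hi MoMac, *Cd177* (6626 ± 2394 against 1079 ± 1046, SD, n = 10 each) and *Mmp8* (7356 ± 1945 against 506 ± 371, SD, n = 10 each), and 2 were lower, *Camp* (which missed the threshold in 4 of 18 alternatives) and *Ngp*. *Ltf* (lactoferrin) was above 0 in 2 Ly6C hi libraries and reached 16.4 there. In Ly6C lo MoMac it reached 4502. The Ly6C lo library of mouse 20, which held 1283 *Mpo*, also had the highest summed level of mature neutrophil genes (131973), with 10479.9 for specific granule genes, and its part in the *Mpo* value was not tested.

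**Figure D4:**
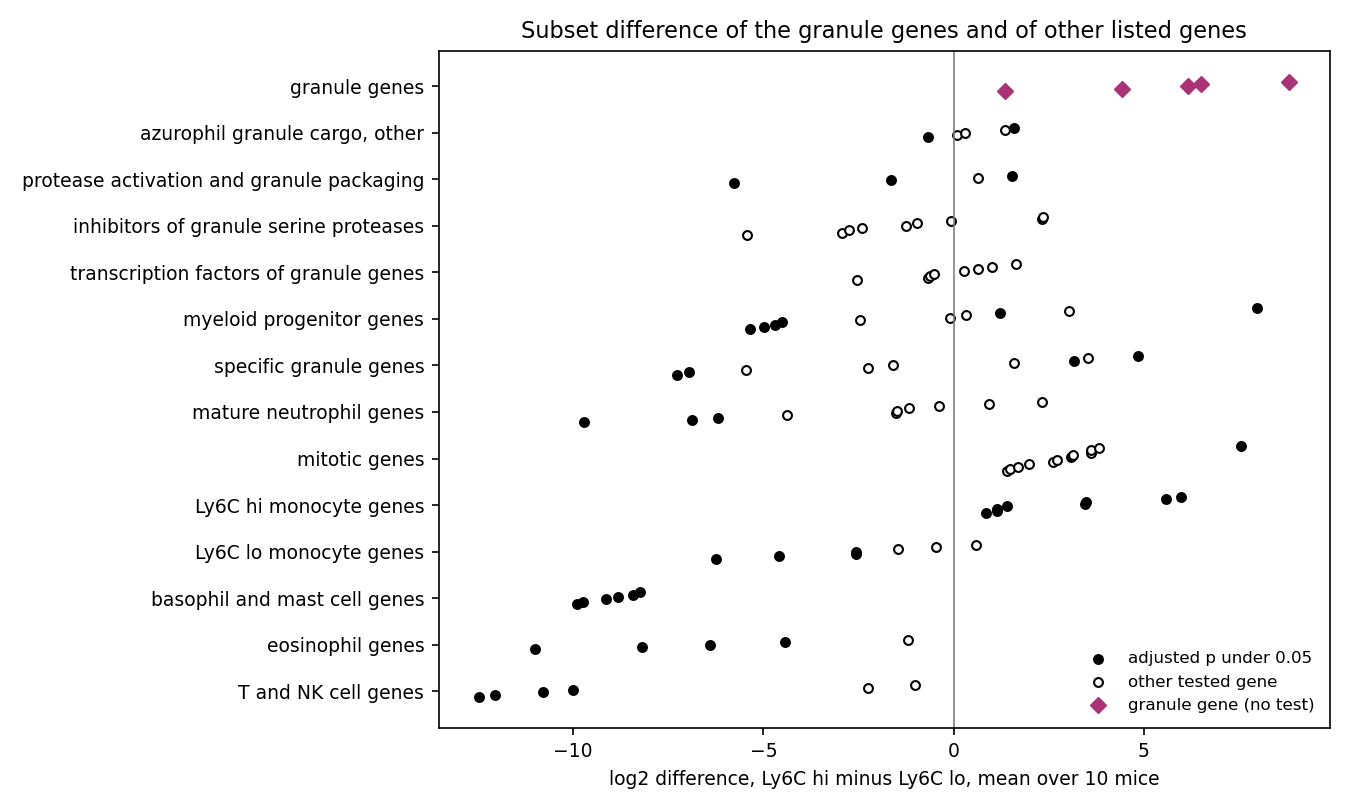
Within-mouse log2 difference Ly6C hi minus Ly6C lo, averaged over 10 mice, for each tested gene of 14 lists, with filled circles for an adjusted p-value under 0.05 (limma) and open circles for the others. The 5 granule genes (diamonds, chosen on this difference and not tested) reach 8.83. All 8 Ly6C hi monocyte genes lie above 0, and no basophil, eosinophil or T and NK cell gene does.

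All 8 tested genes of Ly6C hi monocytes were higher in Ly6C hi MoMac (median log2 difference 2.43), among them *F13a1* and *Chil3*. *Vcan* alone lost the call, in 1 of 18 alternatives (edgeR adjusted p = 0.105). Of 12 mitotic genes 2 passed, *Bub1* (454 ± 442 against 12.0 ± 38.1, SD, n = 10 each, limma adjusted p = 0.000425, edgeR 0.0638) and *Ccnb2* (limma adjusted p = 0.0353, passed in 8 of 18 alternatives), 10 did not, and all 12 differences were above 0 (median 2.91). The summed mitotic level was highest in the Ly6C hi library of mouse 20 (12490.2), which also held the highest sum of the 5 genes (14544), against 3595 to 7797 in the other 9 libraries, and its part in their level was not tested. The mitotic list and its sums include a row that *Plk1* shares with *Dctn5* (mean 2167 in Ly6C hi and 1545 in Ly6C lo libraries). The median mitotic sums were 6277 and 2393. The Ly6C lo libraries held transcripts of other cells, with 4 of 6 tested T and NK cell genes, 6 of 6 basophil and mast cell genes and 4 of 5 eosinophil genes lower in Ly6C hi MoMac. Of these, *Il5ra* passed in 8 and *Ms4a2* in 17 of 18 alternatives. *Itgax*, which encodes the CD11c of the gate, was at 0 in all Ly6C hi and up to 3302 in Ly6C lo libraries. Of the CD3 genes, *Cd3e* was at 0 in Ly6C hi and at most 11.1 in Ly6C lo libraries, *Cd3d* reached 139.7 and 119.5, and *Cd3g* 38.7 and 226.

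With Ac-6-FP, none of the 125 other listed rows tested passed the limma threshold in either subset (13 and 15 with an unadjusted p-value under 0.05), and 0 did for the difference between the subsets (12 unadjusted). The summed mature neutrophil level was 4179 to 7311 with vehicle and 3659 to 6179 with Ac-6-FP among Ly6C hi libraries. The summed mitotic level there was 3595 to 7797 and 6259 to 12490.2. Among Ly6C lo libraries the mature neutrophil sums were 11275.5 to 59516 with vehicle and 21367 to 131973 with Ac-6-FP (medians 37598 and 46873). Specific granule sums there were 643 to 6761 and 712 to 16951 (medians 4201 and 10480), and mitotic sums 0 to 3899 and 2061 to 3669. The part of these sums in the treatment differences of the granule genes was not tested.

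Levels of neighbouring genes were read as well, without a test against those of the 5 genes. *Elane* and *Prtn3* are neighbours of each other, with means of 1851 and 2194 in Ly6C hi MoMac. Next to *Elane* and *Prtn3*, *Cfd* (complement factor D), 2637 bases from *Elane*, was at 0 in all 20 libraries, and *Plppr3*, on the other side of *Prtn3*, was at 0 to 143 in Ly6C hi and at 0 in Ly6C lo libraries (limma adjusted p = 0.141). *Ptbp1*, a splicing factor beyond it, was at a mean of 462 and 494. *Lpo* and *Bzrap1* on both sides of *Mpo* were at 0 in all libraries. Beside *Ctsg*, the basophil protease *Mcpt8* was above 0 in 1 Ly6C hi library and at 80.1 to 7031 in Ly6C lo libraries (adjusted p = 6.06e-06), and *Gzme*, *Gzmd* and *Mcpt4* were at 0. Beside *Ms4a3*, *Ms4a2*, the beta chain of the IgE receptor, was at 0 in Ly6C hi MoMac and at a mean of 610 in Ly6C lo MoMac, whereas *Ms4a6d* was high in both (5791 and 8682). A record named *Tmem259* spans *Elane* and *Prtn3* in the table and held at most 4.78. The longest stretch of bases that the coding transcripts of the 5 genes shared with each other or with 12 related genes was 26, between *Mpo* and *Epx*, and 17 between *Elane* and *Prtn3*, against reads of 75 bases.

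**Figure D5:**
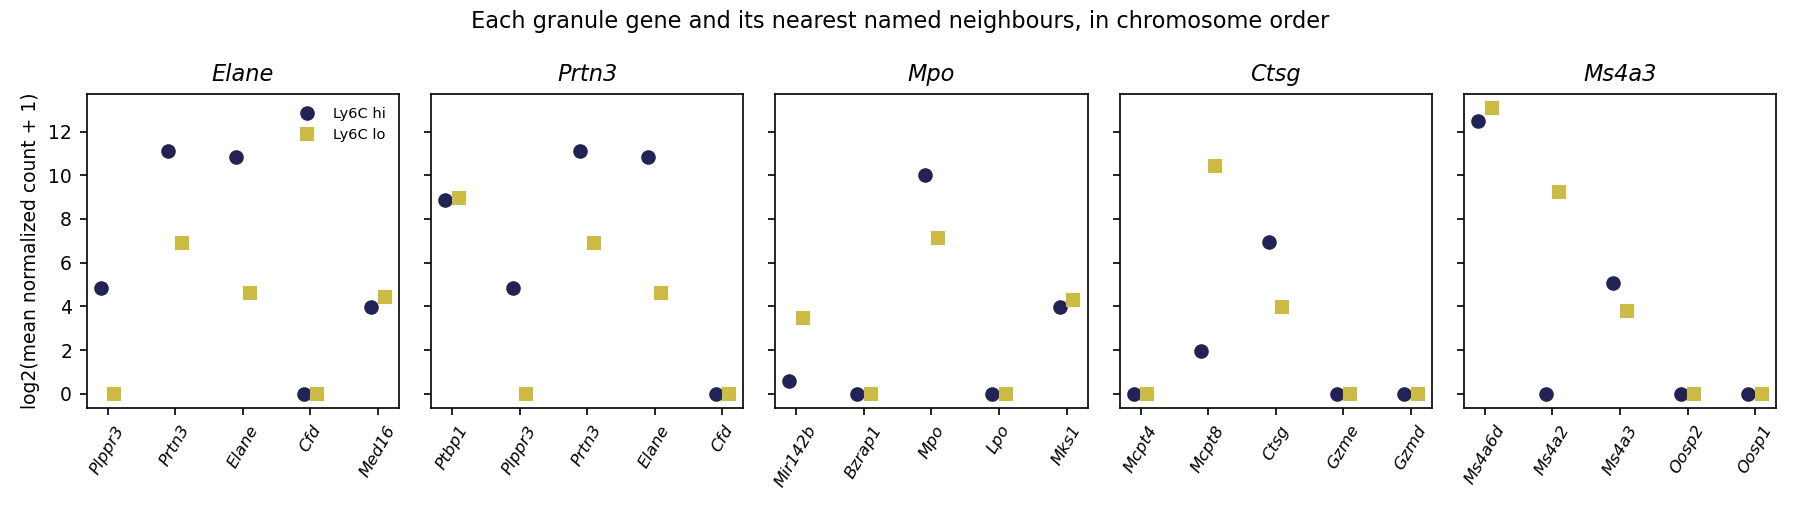
Mean level over 10 Ly6C hi (dark circles) and 10 Ly6C lo libraries (yellow squares), as log2(mean normalized count + 1), of each granule gene and its 2 nearest named neighbours on each side, in chromosome order. *Elane* and *Prtn3* stand above *Plppr3*, *Cfd* and *Med16* in Ly6C hi MoMac, and the neighbours *Mcpt8* and *Ms4a2* are high in Ly6C lo MoMac only.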

How the data were processed

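Gene levels were measured by RNA sequencing in 20 libraries, 5 in each of 4 groups. As stated in the methods and the submitters' processing notes, the authors aligned reads with STAR 2.4.0 to mm10 and counted them on constitutive regions of FAST DB genes. The deposited values are signal values, in which the authors divided read counts by 1 DESeq2 size factor per library. Libraries were matched to mice by column name and sample title. Whole reads were recovered for 19 libraries (99.98% of values within 0.006), not for the Ly6C hi library of mouse 15, which the edgeR fits leave out, so that the fits of the subset difference lack mouse 15.

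Values were analysed as log2(normalized count + 1) with limma 3.58.1 (R 4.3.3) in the 17248 genes with a mean of at least 10 in 1 group, with a variance trend and Benjamini-Hochberg adjustment over all of them. Treatments were compared within subsets, and subsets within mice. Single genes also got a two-sided exact permutation test of the mean log2 value, and correlations a two-sided permutation test with 100000 resamples. P-values rest on 5 mice a group. Alternatives were pseudocounts of 0.1 and 10, other filters, quantile normalization, the number of genes above 0 as a covariate, fits with and without a replicate block, edgeR 4.0.16 and leaving out each mouse. The fit was tested on simulated data.

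Both libraries of a number come from 1 animal, by the labels and the methods. The residuals of libraries of the same mouse correlated with a median of 0.0338 (0.00334 to 0.250), against -0.00319 between mice.

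The 5 genes, the gene lists and the motifs were chosen with earlier results of these data known. Genes were named by rule: the 5 genes, listed genes, the 2 nearest named genes on each side, and the 5 genes most like their mean among those with a mean of at least 100 in Ly6C hi libraries. The 12 related genes of the sequence comparison were chosen after values were seen. The result of 1 listed azurophil cargo gene, and with it the count over that list, is not reported here.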

Additional observations from a re-analysis of the deposited data

Results flagged for a closer look

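Within groups of 5 libraries, 8 values lay far from the other 4 by Dixon's ratio (above 0.71), of 18 gene and group combinations that were not all equal. Chance flags about 1 in 20 groups of normally distributed values. That rate does not apply to these counts, many of them at 0, nor to genes read from the same libraries. In the 3 groups below with 4 zeros and 1 value above 0 the ratio is 1 by construction. Mouse 20 was the highest of the Ly6C hi Ac-6-FP libraries for *Elane* (5132), *Prtn3* (4405) and *Mpo* (4591), and of the Ly6C lo Ac-6-FP libraries for *Mpo* (1283). In Ly6C lo vehicle libraries mouse 12 was the highest for *Prtn3* (375), and it held the only value above 0 for *Elane* (2.48) and *Mpo* (12.4). The value of *Ms4a3* in mouse 15 (89.0) was the only one above 0 of the Ly6C hi vehicle libraries. The cause of these values was not tested.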

How the results depend on the processing

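For the 5 genes, the treatment differences within each subset kept their direction in all 89 combinations of gene and alternative per subset. They also stayed short of the threshold in all of them. The subset differences kept their direction in 75 of 75, from which nothing is read, since the genes were chosen on that contrast. Adjusted p-values of the treatment differences ranged over these alternatives from 0.390 to 1 in Ly6C hi and from 0.230 to 1 in Ly6C lo MoMac. Ms4a3 could not be fitted with a group mean of at least 100. The difference of the treatment effect between subsets turned in 12 of 89. For *Mpo* it was -1.02, -0.37 and -0.32 without mouse 14, 18 or 19 (range over mice left out -1.02 to 1.78). For *Ctsg* it was -0.13 without mouse 12 or 14 (range -0.13 to 1.83) and -0.78 with edgeR. For *Ms4a3* it was -0.22 without mouse 11, 12, 13 or 14, -0.87 without mouse 16 (range -0.87 to 1.40) and -0.11 with the number of genes above 0 as a covariate. The cause was not tested.

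Over all genes, 13 were called for Ac-6-FP in Ly6C hi MoMac, with 5 under no filter, 4 with a group mean of at least 100, 5 with quantile normalization, and 0 with the number of genes above 0 as a covariate, with edgeR (1276 at an unadjusted p-value under 0.05) and with all 4 groups in 1 fit with a replicate block. In Ly6C lo MoMac, 9 became 2 with a pseudocount of 10, with no filter, with a group mean of at least 100 and with the covariate, 3 with quantile normalization and in the fit with a replicate block, and 0 with edgeR (1614 unadjusted). With 1 mouse left out the counts ranged from 0 to 133 and from 0 to 103, both highest without mouse 11. For the difference between subsets, 0 became 2 with a group mean of at least 100, 1 with quantile normalization and 3 with no replicate block, and it was 0 for each mouse left out. The 900 genes that differed between the subsets became 1848 with the covariate and 392 with edgeR, and 655 to 1151 with 1 mouse left out. Higher in Ly6C hi MoMac were 312 of the 900, 1097 of the 1848 and 160 of the 392, so the balance of directions turned with the covariate. The block changed no call among the 5 genes. *Ctsg* and *Ms4a3* were at 0 in all Ly6C lo vehicle libraries, so their folds there are lower bounds.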
